A study of Mus musculus with 19 samples.

Results

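The genes described here are 10 mouse genes, Cyp2b23, Tcf15, Zfp600, Fam71a, Trim43b, Arhgef28, Myrf, Kif26a, Tob1 and Islr2, that were chosen by their high read counts in AICAR-treated embryonic stem (ES) cell cultures, measured against day-15 cells without AICAR or against naive cells. They were found by symbol among 22756 entries of the deposited gene tables, each in 1 entry that is not joined with another gene. Their levels in those groups are therefore given as a description, without a test.

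AICAR is a cell-permeable nucleoside; once phosphorylated it mimics AMP and so activates AMPK, the kinase that senses cellular energy. The ES cells carried the Rex1 GFPd2 reporter, a destabilised green fluorescent protein (GFP) driven from Rex1 (Zfp42), a gene of the naive pluripotent state; the labels name no strain. They were differentiated in serum medium for 2 days, sorted as negative for GFP and for the stem cell antigen SSEA1, and kept in that medium to day 15 with or without AICAR. The 5 AICAR libraries comprise 3 of GFP-positive cells, 1 of GFP-negative cells and 1 of the unfractionated culture. The AICAR dose was not given in the sources used here. The other 14 libraries comprise 8 colony lines, each picked as a GFP-positive colony, 2 sorted lines, started from GFP-positive cells by sorting, and single libraries of cells left undifferentiated, of day-2 cells, of the double-negative cells sorted on day 2 (day-2 sorted cells) and of the day-15 culture without AICAR. Both kinds of line came out of AICAR cultures and were expanded without it, in LIF with MEK and GSK3 inhibitors, the medium also named for the undifferentiated cells. For the AICAR fractions and 1 of the day-2 libraries the titles conflict with the sorting field of the labels; groups were taken from the titles.

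The members belong to several unrelated families. Tcf15 is a basic helix-loop-helix transcription factor of somites that also marks ES cells primed to differentiate, and Id proteins hold such factors inactive. Myrf is a membrane-bound transcription factor that turns on myelin genes in oligodendrocytes, and Zfp600 is a zinc finger protein of the large mouse cluster on chromosome 4. Tob1 is an antiproliferative protein that brings the CCR4-NOT deadenylase to messenger RNAs. Arhgef28 activates the small GTPase RhoA, Kif26a is an atypical kinesin that dampens GDNF-Ret signalling in enteric neurons, and Islr2 (Linx) is a membrane protein of growing axons that binds Trk receptors. Cyp2b23 is a cytochrome P450 of a family known for drug and steroid metabolism, Trim43b belongs to a TRIM family of the early embryo, and Fam71a to a family expressed in testis.

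Promoter sequence is shown for 3 genes that stand for different patterns across the libraries: Cyp2b23, highest in GFP-positive AICAR cells, Fam71a, highest in the GFP-negative fraction, and Tob1, raised to a like level in all 5 AICAR libraries. Each run is the 250 bases before the RefSeq transcript start (GRCm38.p6), written 5′ to 3′ on the gene's strand, with E-boxes (CANNTG, the motif of basic helix-loop-helix factors such as Tcf15) and TATA boxes (TATAAA) in capitals. The windows lie at chr7:26686431-26686680 (minus strand) for Cyp2b23, chr1:191164818-191165067 (minus strand) for Fam71a and chr11:94211204-94211453 (plus strand) for Tob1.
Cyp2b23: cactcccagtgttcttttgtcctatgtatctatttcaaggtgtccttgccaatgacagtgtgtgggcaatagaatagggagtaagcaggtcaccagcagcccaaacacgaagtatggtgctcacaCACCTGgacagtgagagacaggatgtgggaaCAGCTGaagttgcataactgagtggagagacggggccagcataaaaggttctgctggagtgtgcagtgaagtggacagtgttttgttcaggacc
Fam71a: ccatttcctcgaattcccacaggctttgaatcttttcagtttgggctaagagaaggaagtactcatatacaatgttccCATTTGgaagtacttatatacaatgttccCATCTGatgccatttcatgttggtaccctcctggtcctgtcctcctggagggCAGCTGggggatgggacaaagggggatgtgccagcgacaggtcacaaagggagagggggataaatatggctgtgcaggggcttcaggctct
Tob1: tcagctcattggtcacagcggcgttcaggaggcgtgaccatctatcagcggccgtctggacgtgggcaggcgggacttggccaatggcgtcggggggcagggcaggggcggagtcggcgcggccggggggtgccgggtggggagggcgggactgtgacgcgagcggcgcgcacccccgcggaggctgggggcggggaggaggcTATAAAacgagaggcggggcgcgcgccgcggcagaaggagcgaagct

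RefSeq windows were at hand for 7 of the 10 members, Tcf15, Trim43b and Myrf being without one, and 6 of those 7 had an E-box in at least 1 window on either strand. Of all 32851 promoter windows of that length, 66.2% held a CANNTG, so the share is a description only. The Cyp2b23 window had 2 E-boxes, of which CACCTG, 125 bases before the start, reads CAGGTG on the other strand, a form found in 17.2% of all windows. The Fam71a window had 3, at 172, 143 and 91 bases before the start. The Tob1 window had none, but a TATAAA 47 bases before the start (12.4% of all windows, either strand), 3 GC boxes (GGGCGG, 32.7%) and 2 CCAAT boxes (CCAAT, 33.9%). Its GC content was 73.6%, against 49.6% in the Cyp2b23 and Fam71a windows and a median of 52.4% over all windows. None of the 10 windows of the 7 members held the octamer ATGCAAAT (1.60% of all windows), the cyclic AMP response element TGACGTCA (1.55%), its overlapping core TGACGT (6.47%), the FOXO motif GTAAACA (3.17%) or the nuclear receptor site TCAAGGTCA (0.387%), which says only that these letters were not in these windows.

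Reads in genes numbered 5771671 to 8262357 in the 17 libraries of the first sequencing project named in the file headers. They numbered 12751260 and 14233421 in AICAR GFP-positive replicates 1 and 2, the only libraries of the second project. AICAR GFP-positive replicate 3 belongs to the first project, so project, depth and library cannot be told apart within that group. Its normalised read counts (CPM, counts scaled to library size, here with TMM over the 19 libraries) were lower than the mean of replicates 1 and 2 for Trim43b (3.93-fold), Tcf15 (1.99-fold) and Cyp2b23 (1.83-fold). Fam71a had 0 reads in it. The other 6 members differed by a ratio of 0.929 to 1.14. Zfp42, the reporter locus, stood at 547 ± 114 CPM in AICAR GFP-positive cells (SD, n = 3), against 55.6 in GFP-negative cells. Pou5f1, the central pluripotency factor Oct4, stood at 1209 ± 170 and 558.9 CPM in the same groups, against 23.9 CPM at day 15 without AICAR. Whether replicates came from separate cultures is not stated in the labels, and p-values therefore reflect only the spread between these libraries, which may be technical.

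For 4 of the 10 members, Tcf15, Trim43b, Tob1 and Islr2, every AICAR library lay above every one of the 14 other libraries. The same was true of 264 of 10991 entries with at least 100 reads in 1 library (2.4%), and since the members were picked as high in AICAR libraries, nothing is read from the difference. The other 6 members did not stand above all other libraries. For Zfp600, 13 of the 14 other libraries were at or above the lowest AICAR library. Both day-2 libraries reached the AICAR range for Myrf, the day-15 culture without AICAR reached it for Arhgef28 and Kif26a, and 1 colony line for Cyp2b23. Fam71a was at 0 in 1 AICAR library.

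As a description of the choice, the members with at least 100 reads in 1 library of a pair were set against the groups that chose them. GFP-positive AICAR cells were more than 2-fold above day-15 cells without AICAR for 7 of 9 such members (21.3% of all entries), GFP-negative cells for 7 of 9 (11.5%) and the unfractionated culture for 5 of 8 (9.76%). Against undifferentiated cells the counts were 8 of 9 (11.8%) in GFP-positive cells, 8 of 9 (16%) in GFP-negative cells and 7 of 8 (18.3%) in the unfractionated culture. GFP-positive cells were above the colony lines for 8 of 9 (10.2%) and above the sorted lines for 8 of 9 (11%). The folds differed between the groups compared. Tcf15 was 199-fold and Zfp600 82.3-fold higher in GFP-positive AICAR cells than at day 15 without AICAR, where Arhgef28 had a ratio of 0.708. Against undifferentiated cells Arhgef28 was 49.5-fold higher, the largest of the 9, and Zfp600 1.30-fold.

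**Figure D1:**
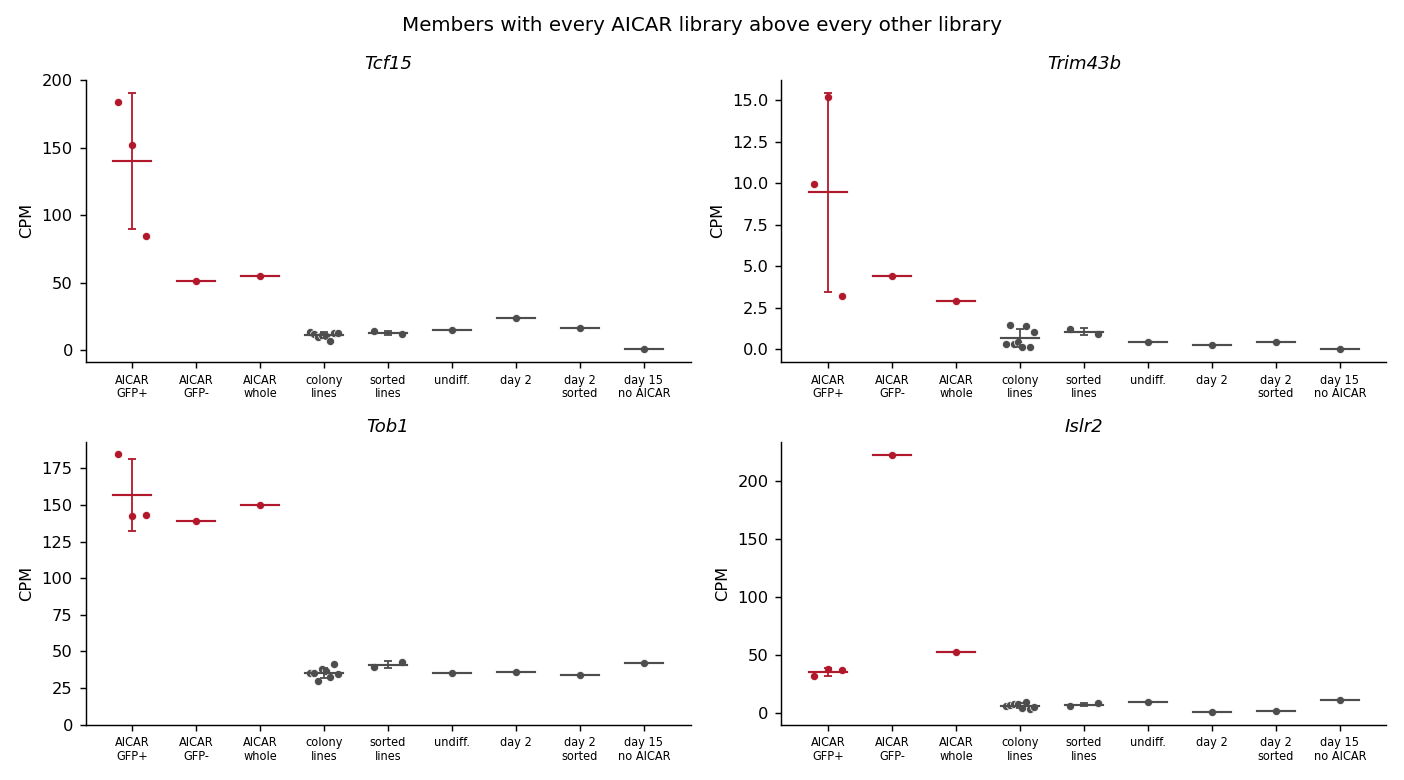
CPM (vertical axis) of Tcf15, Trim43b, Tob1 and Islr2 in each library (points), by group (horizontal axis; red, AICAR cultures; grey, all other groups). Horizontal bars are group means and error bars the SD where a group has more than 1 library. The 5 AICAR libraries lie above all 14 others in each panel, with the smallest gap for Trim43b (1.97-fold) and the largest for Tob1 (3.25-fold).

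Among the regulators of transcription, Tcf15 was highest in GFP-positive AICAR cells and nearly absent at day 15 without AICAR. It stood at 183.6, 152.1 and 84.4 CPM in AICAR GFP-positive replicates 1, 2 and 3, at 51.1 in GFP-negative cells and at 54.6 in the unfractionated culture. It was 11.2 ± 2.14 CPM in colony lines (SD, n = 8), 13.9 and 11.7 in the sorted lines, 15.2 in undifferentiated cells, 23.9 at day 2, 16.6 after the day-2 sort and 0.702 at day 15 without AICAR (6 reads). The lowest AICAR library was thus 2.14-fold above the day-2 library, the highest of the others, while colony and sorted lines overlapped. Per length, Tcf15 was the second highest member after Zfp600 in GFP-positive cells, at 258 ± 89.6 RPKM, the deposited length-normalised unit (SD, n = 3), against 95.4 RPKM in GFP-negative cells.

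Myrf was high in AICAR cells and in day-2 cells and low in all cells kept in LIF with the inhibitors. It stood at 141.6, 154 and 143 CPM in AICAR GFP-positive replicates 1, 2 and 3, 163.5 in GFP-negative cells and 76.3 in the unfractionated culture. Colony lines lay between 16.3 and 25.6 CPM with a median of 21.9, the sorted lines were at 20.5 and 18.9, and undifferentiated cells at 13.2. Day-2 cells stood at 90.7 CPM, day-2 sorted cells at 119.8 and day-15 cells without AICAR at 51.1, so the unfractionated AICAR library lay below both day-2 libraries. Oligodendrocyte markers stayed near 0 in AICAR cells, with a summed level over 8 genes of 4.19 to 8.42 CPM in GFP-positive, 5.70 in GFP-negative and 5.65 in unfractionated cells, against 34.3 CPM at day 15 without AICAR. Olig2, an oligodendrocyte factor, had 0 reads in the GFP-positive and unfractionated AICAR libraries, and Sox10 had 0 in the GFP-negative and unfractionated ones.

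Zfp600 was on average highest in the colony lines, and low in the day-15 library without AICAR alone. It stood at 695 CPM, 922.8 and 750.9 in AICAR GFP-positive replicates 1, 2 and 3, at 425 in GFP-negative cells and at 485 in the unfractionated culture. The colony lines ranged from 867.7 to 1320 CPM with a median of 1104, the sorted lines were at 874.9 and 899.1, and undifferentiated, day-2 and day-2 sorted cells at 608.8, 492 and 550.4. The 3 GFP-positive AICAR libraries thus lay above undifferentiated and day-2 cells and overlapped the lines, while the other AICAR libraries lay below undifferentiated cells. Day-15 cells without AICAR had 9.60 CPM (82 reads). The protein-coding neighbours on either side in the RefSeq order, Zfp980, Zfp987, Zfp992 and Zfp981, likewise zinc finger genes, had 884, 441, 107 and 209.5 CPM in GFP-positive AICAR cells, against 10.2, 11.1, 33.4 and 3.04 CPM at day 15 without AICAR. Such genes are near-identical copies and reads were counted where they mapped uniquely, so the split of reads between them is uncertain.

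**Figure D2:**
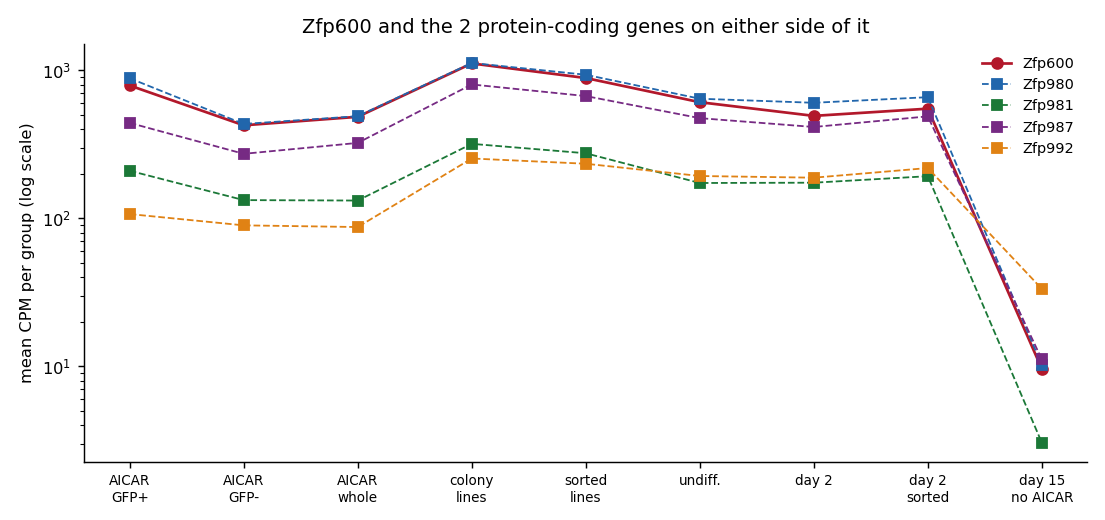
Mean CPM per group (vertical axis, log scale) of Zfp600 (solid line) and its neighbours Zfp980, Zfp981, Zfp987 and Zfp992 (dashed lines) in the 9 groups (horizontal axis). All of them are lowest at day 15 without AICAR, where Zfp600 has 9.60 CPM, and highest in the colony lines, where it averages 1113 CPM.

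Tob1, the deadenylase adaptor, was raised evenly over the AICAR libraries. It stood at 185, 142.5 and 143 CPM in AICAR GFP-positive replicates 1, 2 and 3, 139 in GFP-negative cells and 149.9 in the unfractionated culture. Its level in colony lines was 30.0 to 41.7 CPM with a median of 35.2, the sorted lines were at 39.2 and 42.8, and undifferentiated cells at 34.9. At day 2 it had 35.7 CPM, or 33.6 after the sort, and at day 15 without AICAR 42.1. The AICAR libraries and the rest do not overlap, and the lowest AICAR library was 3.25-fold above the highest other. Its close relative Tob2 was also highest in the AICAR groups, at 23.0 CPM on average in GFP-positive cells, 28.3 in GFP-negative and 23.3 in unfractionated AICAR cells, against 10.9 to 18.6 CPM as means of the other groups.

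Of the genes of signalling and the cytoskeleton, Islr2 was the one highest in GFP-negative AICAR cells and still above all other libraries in the rest of the AICAR culture. It had 31.5, 37.7 and 37.2 CPM in GFP-positive replicates 1, 2 and 3, 221.9 in the GFP-negative fraction and 52.3 in the unfractionated culture. In colony lines it had 3.54 to 8.99 CPM (median 5.98), the sorted lines were at 6.08 and 8.12, and undifferentiated cells at 9.56. It was nearly absent at day 2, with 0.909 CPM in the day-2 and 1.17 in the day-2 sorted library (7 and 8 reads), and had 11.5 CPM at day 15 without AICAR. Its neighbour and relative Islr was at no more than 1.43 CPM on average in the AICAR groups, against 53.7 CPM at day 15 without AICAR. Stra6, the retinol transporter gene beside them, had 3.70 CPM in GFP-positive and 67.4 in GFP-negative AICAR cells, and 51.5 at day 15 without AICAR.

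Arhgef28, the RhoA activator, was high in all day-15 cultures with or without the compound. It stood at 62.1, 56.7 and 61.6 CPM in AICAR GFP-positive replicates 1, 2 and 3, 144 in GFP-negative cells and 91.7 in the unfractionated culture. Day-15 cells without AICAR had 85.0 CPM, between the fractions. Colony lines had 0.461 to 4.75 CPM (median 2.54), the sorted lines were at 1.18 and 1.05, undifferentiated cells at 1.21, and day-2 and day-2 sorted cells at 13.8 and 15.3. Kif26a, the atypical kinesin, had 32.2, 34.9 and 31.3 CPM in AICAR GFP-positive replicates 1, 2 and 3, 18.8 in GFP-negative cells, 18.2 in the unfractionated culture and 25.2 at day 15 without AICAR. It was 2.67 to 4.97 CPM in the colony lines (median 3.17), 4.56 and 4.21 in the sorted lines, 3.19 in undifferentiated and 14.2 and 16.6 CPM in day-2 and day-2 sorted cells. Both genes were thus lowest in the cells kept in LIF with the inhibitors. The paralogue Kif26b went the other way between the fractions, at 0.712 CPM on average in GFP-positive cells, against 39.3 in GFP-negative cells, and had 119.5 CPM at day 15 without AICAR.

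Cyp2b23, the P450 gene, was highest in GFP-positive AICAR cells and undetected at day 15 without AICAR. It stood at 98.3, 51.8 and 41.1 CPM in AICAR GFP-positive replicates 1, 2 and 3, 30.7 in GFP-negative cells and 40.4 in the unfractionated culture. The colony lines ranged from 20.3 to 43.6 CPM (median 26.9) and the sorted lines were at 23.2 and 27.8. Colony line 4, the highest, thus lay above GFP-positive replicate 3 and the GFP-negative and unfractionated AICAR libraries. The other lines lay below all 5 AICAR libraries. Undifferentiated, day-2 and day-2 sorted cells had 10.5, 7.40 and 7.15 CPM, and day-15 cells without AICAR had 0 reads. Against a floor of 3 reads for that zero, GFP-positive AICAR cells were at least 181-fold higher. Cyp2b9 and Cyp2b10, relatives in the same family, had 0 reads in all 19 libraries, and Cyp2b19 averaged at most 0.563 CPM in any group. Liver markers were also near 0, with a summed level over 8 genes of at most 7.58 CPM in any library.

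Trim43b was low everywhere and highest in AICAR cells. It had 9.92, 15.2 and 3.20 CPM in AICAR GFP-positive replicates 1, 2 and 3 (133, 233 and 29 reads), 4.43 in GFP-negative cells (28 reads) and 2.90 in the unfractionated culture (21 reads). The colony lines ranged from 0.151 to 1.47 CPM (median 0.378), the sorted lines had 1.18 and 0.902, undifferentiated, day-2 and day-2 sorted cells 0.455, 0.260 and 0.438, and day-15 cells without AICAR 0 reads. Trim43a and the entry that joins Trim43c with 9330159M07Rik had 1.62 and 7.33 CPM on average in GFP-positive cells, against 0.152 and 3.49 in undifferentiated cells, and reads may be split between these near-identical copies. Fam71a was found almost only in GFP-negative AICAR cells, at 19.2 CPM (121 reads). It had 21, 10 and 0 reads in GFP-positive replicates 1, 2 and 3 and 14 reads in the unfractionated culture. In the 14 other libraries it had 1 read in all, in a colony line. No other Fam71 gene averaged above 1.05 CPM in any group, and Atf3, the stress-response gene beside Fam71a, had 5.26 CPM in GFP-positive and 28.2 in GFP-negative AICAR cells, and 37.3 at day 15 without AICAR.

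**Figure D3:**
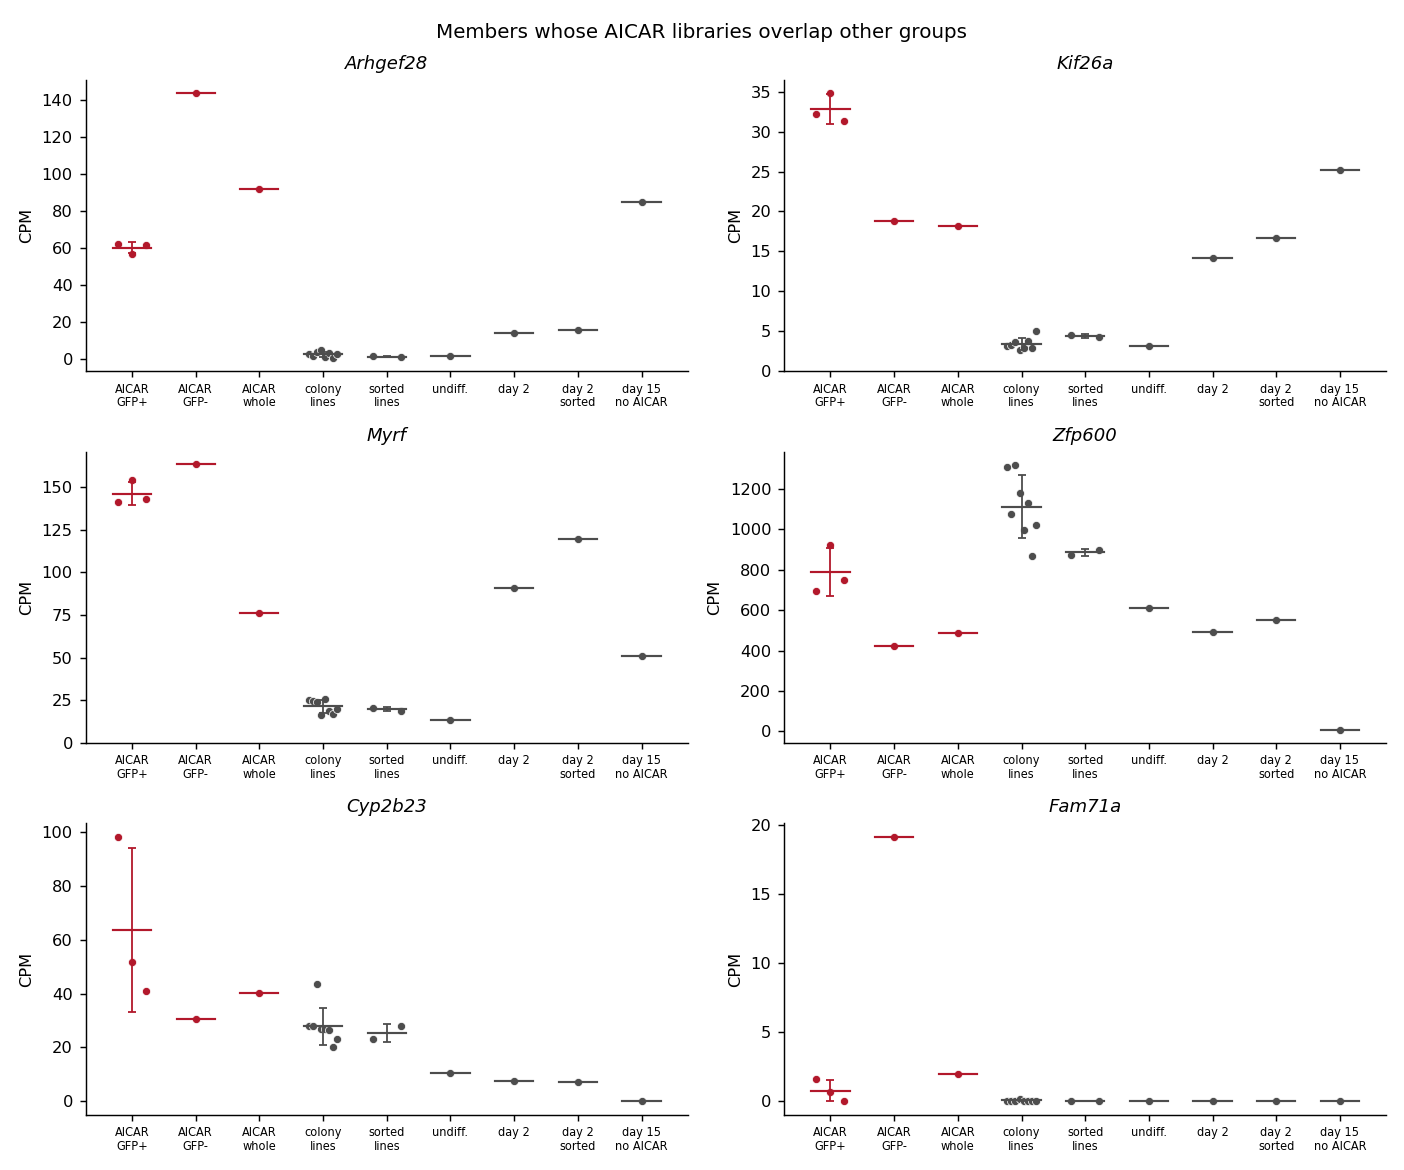
CPM (vertical axis) of Arhgef28, Kif26a, Myrf, Zfp600, Cyp2b23 and Fam71a in each library (points), by group (horizontal axis; red, AICAR cultures; grey, all other groups). Horizontal bars are group means and error bars the SD where a group has more than 1 library. At least 1 other library reaches the AICAR range in each panel, such as day 15 without AICAR for Arhgef28 (85.0 CPM), and for Fam71a 1 AICAR library lies at 0.

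AICAR GFP-positive and GFP-negative cells were compared to show how the members divided within the AICAR culture, a contrast other than those that chose them. The AICAR libraries on both sides did enter the choice, and Fam71a reached 100 reads only in GFP-negative cells, so its difference follows from the choice. Islr2, Fam71a and Arhgef28 were lower in GFP-positive than in GFP-negative cells, by log2 fold changes of -2.68 ± 0.16, -4.65 ± 1.10 and -1.30 ± 0.14 (SE). Tcf15 (1.41 ± 0.48), Cyp2b23 (1.01 ± 0.55), Zfp600 (0.86 ± 0.22) and Kif26a (0.76 ± 0.20) were higher. None of the 10 members was called, the smallest edgeR adjusted p being 0.120 for Islr2, 0.138 for Arhgef28 and 0.149 for Fam71a. The test called 0 of 13821 entries in either direction (0%), although 3022 had an unadjusted p under 0.05 and DESeq2 called 1129. Without GFP-positive replicate 3 the same test called 1744 entries higher and 2209 lower, among them 5 members higher (Trim43b, Tcf15, Cyp2b23, Kif26a and Zfp600) and 3 lower (Islr2, Arhgef28 and Fam71a). In that fit GFP-positive cells are the 2 libraries of the second project alone, so project and fraction cannot be told apart there, and Trim43b was only 1.06 ± 0.92 higher with all 3. DESeq2 on all 4 libraries called 2 members higher (Tcf15 and Zfp600) and 2 lower (Islr2 and Arhgef28). Tob1 (0.14 ± 0.21) and Myrf (-0.20 ± 0.14) had fold changes near 0.

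Marker sums of other cell types were as follows in the same fractions. Smooth muscle genes summed to 20.1 to 72.6 CPM in the GFP-positive libraries against 286 CPM in GFP-negative cells over 7 genes. Naive pluripotency genes summed to 2738 to 4032 against 1341 CPM over 15 genes. Visceral endoderm genes summed to 122.9 to 892.6 against 808.7 CPM over 10 genes, so the GFP-positive libraries spanned the GFP-negative value. None of these markers was at 0 in either fraction. The part of such cells in the levels of Islr2, Arhgef28 and Fam71a was not tested, and in these bulk samples fewer cells of a type and less RNA per cell cannot be told apart.

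**Figure D4:**
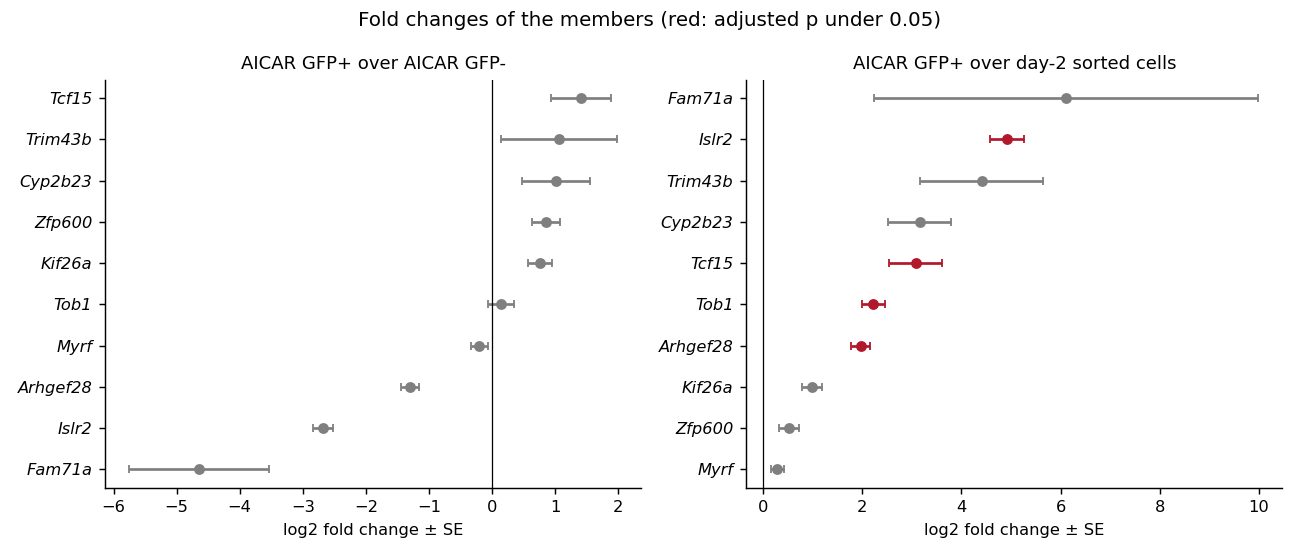
Log2 fold changes with SE (horizontal axis) of the 10 members (rows), AICAR GFP-positive cells over AICAR GFP-negative cells on the left and over day-2 sorted cells on the right, by edgeR (red, adjusted p under 0.05). On the left Islr2 lies at -2.68 and Tcf15 at 1.41 with no call, and on the right all 10 lie above 0 and 4 are called.

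The unfractionated culture, which like its fractions entered the choice of the members, was set against them. It lay between the lowest and the highest fraction library for 7 members and below all of them for Trim43b, Myrf and Kif26a (18.2 against 18.8 CPM in the nearest library). Of 9973 entries, 31.3% lay below and 19.7% above all fraction libraries. In the test of GFP-positive against unfractionated cells, 4 entries of 14026 were higher (0.0285%) and 280 lower (2%), and no member was called. Myrf came nearest, at 159 ± 7.61 against 86.0 CPM (log2 fold change 0.88 ± 0.15 SE, edgeR adjusted p 0.0701), and Arhgef28 was lower (-0.66 ± 0.14, edgeR adjusted p 0.0958). DESeq2 called Tcf15, Zfp600 and Myrf higher and Arhgef28 lower, among 1436 of 14026 entries called in either direction. Without GFP-positive replicate 3, 5 members were called higher (Trim43b, Tcf15, Kif26a, Zfp600 and Myrf) and 2 lower (Islr2 and Arhgef28). The same fit called 1835 of all entries higher and 2780 lower. Without replicate 1 or 2, no member was called, nor any other entry. With replicate 3 left out, the GFP-positive libraries are those of the second project alone, so project and fraction cannot be told apart there. In the comparison of single libraries, GFP-negative with unfractionated cells, Fam71a was 9.92-fold, Islr2 4.25-fold and Myrf 2.14-fold higher. Such a difference of over 2-fold was found for 2.98% of 8390 entries, and it has no replicate check. Mesenchyme genes summed to 1823 to 1917 CPM in GFP-positive, 1470 in GFP-negative and 14150 CPM in unfractionated cells over 12 genes. The median log2 fold change of the 11 genes tested was -3.47 for GFP-positive against GFP-negative cells, opposite in sign to the sums, and -5.49 for GFP-positive against unfractionated cells, and their part in these differences was not tested.

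Day-2 sorted cells are the cells from which the AICAR culture was started, and GFP-positive AICAR cells were tested against them to show what had changed by day 15. The GFP-positive libraries also entered the choice of the members and the day-2 side is 1 library, so the calls are no independent evidence of a rise. Islr2, Tcf15, Tob1 and Arhgef28 were called higher; without replicate 2 none was. Islr2 had the largest difference of the 4, at 37.8 ± 3.92 (SD, n = 3) against 1.24 CPM with TMM scaling within the comparison, a log2 fold change of 4.92 ± 0.34 (SE, edgeR adjusted p 0.0146). Tcf15 stood at 148.8 ± 52.9 against 17.7 CPM (3.07 ± 0.53, edgeR adjusted p 0.0422), Tob1 at 166.9 ± 24.8 against 35.7 (2.23 ± 0.23, edgeR adjusted p 0.0200) and Arhgef28 at 64 ± 3.19 against 16.3 (1.97 ± 0.19, edgeR adjusted p 0.0186). Of all 13857 entries tested, 3.18% were called higher and 2.6% lower.

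The other 6 members were not called against day-2 sorted cells with all 3 replicates. Cyp2b23 was 3.16 ± 0.64 higher on the log2 scale (edgeR adjusted p 0.0560), Kif26a 0.98 ± 0.21 (edgeR adjusted p 0.0594) and Trim43b 4.41 ± 1.25 (edgeR adjusted p 0.100). Zfp600 differed by 0.52 ± 0.21 and Myrf by 0.29 ± 0.14. Fam71a had 0 reads in day-2 sorted cells. The calls rested on the GFP-positive libraries kept, and with replicate 3 left out project and group cannot be told apart. Without replicate 2 no other entry was called either, and without replicate 1 Cyp2b23 replaced Tcf15 among the 4. Without replicate 3 there were 8, with Trim43b, Cyp2b23, Kif26a and Zfp600 added, and 2108 of all entries were called higher. DESeq2 called 7, adding Trim43b, Cyp2b23 and Kif26a, among 1947 of 13857 entries called in either direction. A fit of all 19 libraries called the same 7. With both day-2 libraries as 1 group, 9 of 9 members tested were called higher, Zfp600 and Myrf among them. By their titles those 2 libraries are different populations, so their spread is not one between replicates. These 3 fits also called more of all entries, as given at the end, and nothing is read from the members added.

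The single GFP-negative and unfractionated AICAR libraries were also set against day-2 sorted cells. Both AICAR libraries entered the choice of the members, so their folds are a description only. Fam71a reached 100 reads only in GFP-negative cells, so its fold follows from the choice. In GFP-negative cells Islr2 was 190.1-fold, Arhgef28 9.40-fold, Cyp2b23 4.29-fold, Tob1 4.14-fold and Tcf15 3.07-fold higher, and Fam71a at least 43.8-fold. Of 8233 entries with at least 100 reads in 1 of the pair, 13.2% were more than 2-fold higher. In the unfractionated culture Islr2 was 44.8-fold, Arhgef28 5.98-fold, Cyp2b23 5.65-fold, Tob1 4.47-fold and Tcf15 3.28-fold higher, against 17.2% of 8701 entries past 2-fold. Zfp600, Myrf and Kif26a stayed within 2-fold in both. Day-15 cells without AICAR were set against the same day-2 cells. Zfp600 was 57.4-fold, Tcf15 23.7-fold and Myrf 2.34-fold lower there (21.1% of 9758 entries were more than 2-fold lower), Cyp2b23 was at least 20.4-fold lower, and Arhgef28 was 5.55-fold higher (27.7% of entries higher). Islr2, with 98 against 8 reads, was 9.82-fold higher in the day-15 cells without AICAR too. These comparisons share the day-2 sorted library.

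The first step, day-2 sorted cells against undifferentiated cells, touched 3 members past 2-fold upward: Arhgef28 12.6-fold, Myrf 9.07-fold and Kif26a 5.22-fold, against 7.91% of 7992 entries. Islr2, under 100 reads in both, had 1.17 against 9.56 CPM, 8.19-fold lower. The day-2 library gave 11.3-fold, 6.87-fold and 4.44-fold for the same 3 genes, against 7.71% of 8174 entries. These 3 were thus already higher at day 2, and Tcf15, Tob1, Cyp2b23 and Zfp600 stayed within 2-fold. Between the day-2 sorted and the day-2 library no member with 100 reads differed 2-fold (0.282% of 7793 entries were higher and 0.0257% lower in the sorted cells).

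Colony lines were tested against undifferentiated cells to show whether the members' levels remained raised in lines grown out of the AICAR culture. No AICAR library enters this test. Both groups were nevertheless among those the members were chosen against, and the undifferentiated side is 1 library. A difference here is therefore no independent evidence. Cyp2b23 stood at 26.5 ± 6.54 CPM in colony lines (SD, n = 8) against 10.2 in undifferentiated cells, a log2 fold change of 1.38 ± 0.34 (SE, edgeR adjusted p 0.120). Zfp600 stood at 1054 ± 146 against 592 CPM (0.83 ± 0.19, edgeR adjusted p 0.104). The 8 members tested had no call, with 0.00812% of 12314 entries called higher and 0.0244% lower, while 2385 had an unadjusted p under 0.05. DESeq2 called Cyp2b23 and Zfp600 higher, among 302 of 12314 entries called in either direction. Without colony line 9 edgeR called Zfp600, among 55 entries called higher. Tob1 differed by -0.01 ± 0.15, with an interval of the difference of -0.31 to 0.28. Tcf15 differed by -0.47 ± 0.26, Myrf by 0.66 ± 0.26, Kif26a by 0.05 ± 0.36, Islr2 by -0.68 ± 0.38 and Arhgef28 by 0.93 ± 0.94. Trim43b and Fam71a did not pass the filter on low counts.

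Colony lines against sorted lines showed no called entry among 11870 (0%) by edgeR, with 1092 at an unadjusted p under 0.05 and 2 called by DESeq2. Zfp600 was 0.32 ± 0.13 higher on the log2 scale in colony lines (edgeR adjusted p 0.536) and Tob1 differed by -0.22 ± 0.11 (edgeR adjusted p 0.551). The intervals of the difference were -0.29 to 0.53 for Cyp2b23 and -0.59 to 0.19 for Tcf15.

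Genes of the members' own pathways were read from lists of partners, relatives and targets. The list for KRAB zinc finger repression is not limited to KRAB zinc finger genes. Against day-2 sorted cells it had 3 of 16 genes higher in GFP-positive AICAR cells (3.18% of all entries) and 1 lower (2.6%). Of the 3, Zfp42 (4.70 ± 0.35 on the log2 scale) is the locus of the reporter by which both groups were sorted, so its difference follows from the sort. Zfp459 and Zfp57, the guardian of imprints, rose by 2.97 ± 0.24 and 3.33 ± 0.40, and the heterochromatin gene Cbx1 fell by 0.75 ± 0.13. The median of the list was 0.39, against 0.07 over all entries. Of 14 Trim43 relatives and preimplantation genes 8 were lower (2.6% of all entries) and none higher (3.18%): Dux, Tdpoz3, Tdpoz4 and 5 Usp17l genes, with Usp17le at 0.240 against 43.7 CPM (median of the list -5.97). Trim43b differed from these genes in sign, at a fold change that was not called. A list of 12 markers of cells like the 2-cell embryo, Tdpoz4 among them, summed to 4357 CPM in day-2 sorted and 2298 in day-2 cells. It summed to 597.3 CPM in undifferentiated cells, 128.8 on average in GFP-positive AICAR cells and 136.6 at day 15 without AICAR. The low sum was thus not particular to AICAR cells. In the Ret list the adaptor Shc1 fell by 1.21 ± 0.22 and 0 of 6 rose.

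The partners of the other members were not called against day-2 sorted cells. In the list of Tcf15 partners 0 of 11 genes passed: its dimer partner Tcf3 differed by -0.16 ± 0.14 and Tcf12 by 0.16 ± 0.20, and the inhibitors Id1, Id2 and Id3 by -1.37 ± 0.39, -1.61 ± 0.49 and -1.27 ± 0.27. Against the unfractionated culture Id3 did fall, to 9.96 ± 1.34 against 43.4 CPM (-2.12 ± 0.24, edgeR adjusted p 0.0324), 1 of 11 genes of its list against 2% of all entries. None passed among 17 genes of the Tob and CCR4-NOT list (the scaffold Cnot1, in an entry joined with 4930513N10Rik, differed by 0.13 ± 0.16), 8 of the myelin list, 9 of the Linx and Trk receptor list, 7 of the P450 list and 3 of the Fam71 list. In colony lines against undifferentiated cells Btg1, an antiproliferative relative of Tob1, fell by 0.90 ± 0.13 (edgeR adjusted p 0.0432).

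Genes were also ranked by likeness to each member, as the mean absolute difference of centred log2(CPM + 1) over the 9 group means. Zfp600 ran closest to the 2 entries of Rex2, a zinc finger gene, at 0.06 for both. Cyp2b23 was most like Zfp459 (0.24) and Sox2 (0.44), and Sox2, the partner of Pou5f1, had 526.3 ± 74.6 CPM in GFP-positive AICAR cells against 317 ± 29.9 in colony lines. Tob1 was most like Tlr2 (0.18) and Asz1 (0.23), a germline gene, and Trim43b like Coro2b (0.29) and Nlrp12 (0.30). Fam71a was most like Ufsp1 (0.31) and Prkaa2 (0.38), which encodes a catalytic subunit of AMPK. Prkaa2 had 10.7 CPM in GFP-positive and 61.9 in GFP-negative AICAR cells, 6.83 in undifferentiated cells and 15.7 at day 15 without AICAR. Islr2 was most like Lifr (0.53), the LIF receptor, at 154.7 CPM in GFP-positive and 402 in GFP-negative AICAR cells against 5.55 in day-2 sorted cells. Myrf was most like Crmp1 (0.24), Arhgef28 like Lrrc8c (0.42) and Tcf15 like Gpat2 (0.48). The 9 points share libraries with the choice of the members and are a description.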

How the data were processed

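Gene tables of 19 libraries were used. Their deposited counts, all whole, are uniquely mapping reads for which the authors ran rpkmforgenes on an mm9 RefSeq table with no strand option, per the file headers; reads of overlapping antisense genes can therefore not be told apart, although the kit was stranded. The RPKM values were computed by the authors with 3' untranslated regions left out, per the file headers, and were used only to compare levels between genes. The submitters' processing notes name TopHat2 2.0.14, Bowtie2 2.2.5, Trimmomatic 0.3.3 and CASAVA 1.8.2.

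The members and the gene lists were chosen with earlier results of these data known. CPM are counts with TMM scaling over all 19 libraries, or within a comparison beside a test. Tests used edgeR 4.0.16 (R 4.3.3), the quasi-likelihood test on the libraries compared, with the tool's expression filter (minimum count 10, total 15) and Benjamini-Hochberg adjustment over all entries, called under 0.05. The SE is the log2 fold change divided by the root of F. A single library on 1 side is taken to vary like the other group. Single libraries were compared by CPM ratio past 2-fold among entries with at least 100 reads in 1 library of the pair; a 0 was set to a floor of 3 reads. Floors cover counting error only, and intervals of a difference span 1.96 SE on either side. Replicate pairs differed beyond counting noise (chi-square per degree of freedom 1.89 to 47.4 over 32 pairs). The tests were checked on simulated data. Named genes were the members, the 2 genes most like each, list genes with the highest CPM or called, and relatives and neighbours; Stra6, Atf3 and the early-embryo genes called lower were singled out after their values were seen. DESeq2 1.42.0, RLE scaling, no filter, all libraries in 1 fit, both day-2 libraries as 1 group, other pseudocounts and leaving out each replicate were alternatives. A few results are not reported here.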

Additional observations from a re-analysis of the deposited data

Results flagged for a closer look

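Among the 10 members in the 8 colony lines, 2 single libraries stood apart from the rest of their group. Chance flags about 1 in 20 groups of continuous values, a rate that does not hold for a gene at 0 in nearly all lines, such as Fam71a. Cyp2b23 had 43.6 CPM in colony line 4, against 20.3 to 28.2 CPM in the other 7 lines (median 26.9). Fam71a had 0.149 CPM in colony line 5, which is 1 read, against 0 reads in the other 7 lines.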

How the results depend on the processing

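No paired analysis was possible because the groups tested share fewer than 2 replicate numbers. The 4 members with every AICAR library above all others stayed 4 with RLE scaling and with plain CPM; a pseudocount cannot change this count. Counts of called entries, higher and lower, moved with the fit. For AICAR GFP-positive against GFP-negative cells they were 584 and 545 with DESeq2, 1815 and 1733 with all 19 libraries in 1 fit and 2 lower without the low-count filter, against 0 and 0. For GFP-positive against unfractionated cells they were 521 and 915 with DESeq2, 15 and 447 without the filter and 2202 and 2298 with all libraries, against 4 and 280. For GFP-positive against day-2 sorted cells they were 1063 and 884 with DESeq2, 2060 and 2176 with all libraries and 2378 and 2053 with both day-2 libraries as 1 group, against 441 and 360. By their titles the 2 day-2 libraries are not replicates. For colony lines against undifferentiated cells they were 218 and 84 with DESeq2, 0 higher with RLE scaling and 0 and 1 with all libraries, against 1 and 3, and for colony against sorted lines 1 and 1 with DESeq2. Leaving out each replicate gave 0 to 1744 higher and 0 to 2209 lower entries against GFP-negative cells, 0 to 1835 and 0 to 2780 against unfractionated cells, 0 to 2108 and 0 to 2044 against day-2 sorted cells, 0 to 55 and 0 to 63 for colony lines against undifferentiated cells, and 0 in both directions against sorted lines. The highest counts came without GFP-positive replicate 3 or colony line 9, and the cause was not tested. Of the members' fold changes, 9 changed sign, given on the log2 scale: Tob1 against unfractionated cells with RLE scaling (-0.0022), DESeq2 (-0.0021) and when single replicates were left out (-0.12 to 0.073; negative without replicate 1), Tob1 in colony lines against undifferentiated cells with RLE scaling (0.0045), DESeq2 (0.0047), all libraries (0.0027) and single lines left out (-0.055 to 0.016; positive without line 4), Kif26a there (-0.046 to 0.094; negative without line 10) and Cyp2b23 against sorted lines (-0.0012 to 0.26; negative without line 4). A further 54 passed the threshold only under an alternative and 5 lost it. Precision is limited by single libraries in 6 of the 9 groups and, for Fam71a and Trim43b, by under 100 reads in most libraries.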
